A study of Rattus norvegicus with 16 samples.

Results

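The genes described here encode the subunits and helpers of the proteasome, measured in the left ventricle (with septum, per the methods) of normotensive and hypertensive rats that inhaled air or diesel exhaust (DE). They were taken by name: every probe set whose only gene in the array's annotation has a symbol of Psma, Psmb, Psmc, Psmd, Psme, Psmf or Psmg followed by a digit. The rule gave 46 of the 15866 probe sets tested, on 43 genes, and used no measured value. The symbols Psmc3ip and Psme3ip1 fit the rule but belong to 2 genes that encode no proteasome subunit, which leaves 44 probe sets on 41 genes. Another 6 probe sets list a subunit together with other genes and were left out, so that Psmb6 and Psme3 had no probe set of their own.

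Each group held 4 male rats, 12 to 14 weeks old per the labels, 1 array a rat. In the methods this is the age at purchase, before acclimatization and exposure, so the hearts were older when taken. WKY-air and WKY-DE were Wistar Kyoto (WKY) rats, the normotensive strain, and SH-air and SH-DE were spontaneously hypertensive (SH) rats, an inbred strain that develops high blood pressure without treatment. The DE groups inhaled 2 mg/m3 of diesel particles with the whole exhaust for 4 weeks, 5 days a week and 6 h a day per the labels (the methods state a shorter day), and the air groups inhaled filtered air on the same schedule. Air and DE came from separate chambers, so that exposure and chamber cannot be told apart. The values are array signals on a linear scale, and a signal can be set beside the signal of the same probe set on another array but not beside that of another gene. A probe set counted as called where limma gave an unadjusted p under 0.01 and, after adjustment over all probe sets, a p under 0.05.

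The 20S proteasome is a barrel built from rings of alpha subunits, which gate the entrance, and rings of beta subunits, some of which carry the protein-cutting sites. The 19S particle caps the barrel. Its base binds ubiquitin-tagged proteins and unfolds them with its ATPases, its lid removes the ubiquitin, and in heart muscle the complex removes damaged and surplus contractile proteins. Interferon can replace the catalytic beta subunits Psmb5, Psmb6 and Psmb7 with Psmb8, Psmb9 and Psmb10, respectively, which gives the immunoproteasome that cuts peptides for antigen presentation.

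The 250 bases before the start of Psmb10, the only member called in any comparison, are shown with those of its constitutive counterpart Psmb7 and of Psmb8 and Psmb5, the other pair in which both members were measured. They are RefSeq sequences of build GRCr8, at chr19:50743293-50743542 (- strand), chr3:42827471-42827720 (- strand), chr20:4657032-4657281 (- strand) and chr15:32047380-32047629 (- strand), each written 5′ to 3′ on the strand of the gene. Capitals mark, on both strands, matches to the letters GAAANNGAA (the core of an interferon-stimulated response element), CCAAT, TTCNNNGAA (the element bound by STAT factors) and TGACNNNGC (the antioxidant response element).
Psmb10: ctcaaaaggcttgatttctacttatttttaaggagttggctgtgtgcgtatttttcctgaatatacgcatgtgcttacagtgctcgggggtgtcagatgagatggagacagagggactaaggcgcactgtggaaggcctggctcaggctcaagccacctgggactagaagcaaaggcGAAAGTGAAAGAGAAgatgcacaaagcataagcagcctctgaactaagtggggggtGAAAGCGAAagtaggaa
Psmb7: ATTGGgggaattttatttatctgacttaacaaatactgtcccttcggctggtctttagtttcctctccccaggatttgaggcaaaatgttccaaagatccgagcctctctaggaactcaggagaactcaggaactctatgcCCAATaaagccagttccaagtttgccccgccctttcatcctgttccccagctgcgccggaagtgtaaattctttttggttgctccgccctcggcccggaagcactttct
Psmb8: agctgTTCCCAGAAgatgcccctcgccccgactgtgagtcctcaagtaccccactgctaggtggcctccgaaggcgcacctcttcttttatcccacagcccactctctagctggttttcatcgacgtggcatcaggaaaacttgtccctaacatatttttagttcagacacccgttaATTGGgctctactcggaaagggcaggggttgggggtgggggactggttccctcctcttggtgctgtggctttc
Psmb5: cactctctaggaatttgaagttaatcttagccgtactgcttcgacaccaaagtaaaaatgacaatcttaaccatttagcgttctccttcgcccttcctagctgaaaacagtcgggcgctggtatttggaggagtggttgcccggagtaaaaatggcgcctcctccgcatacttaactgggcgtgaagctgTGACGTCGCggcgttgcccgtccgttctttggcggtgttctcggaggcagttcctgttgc
The Psmb10 stretch holds 3 matches to GAAANNGAA, 2 of which overlap each other, and no other match. The Psmb7 stretch holds 2 matches to CCAAT, the Psmb8 stretch 1 to CCAAT and 1 to TTCNNNGAA, and the Psmb5 stretch 1 to TGACNNNGC. Among the 39 subunit and helper genes with a promoter in the RefSeq table, of 41, GAAANNGAA was present in 7 (17.9%), against 8.12% of all 33469 promoter stretches of this length. CCAAT was present in 19 of 39 (48.7%, against 34.0% of all), TGACNNNGC in 6 (15.4%, against 10.1%) and TTCNNNGAA in 3 (7.69%, against 7.67%). A match describes the letters and not a bound factor.

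All 46 probe sets gave signals well within the range of the arrays, from a lowest single value of 249 to a highest mean over the 16 arrays of 8136, while the median signal of all probe sets on an array lay between 173 and 216. The WKY-DE arrays had the highest such medians (209 to 216), so that on the deposited scale the median of all probe sets was 0.10 higher (log2) in WKY-DE than in WKY-air. Markers of ventricular cardiomyocytes were present on every array, with a summed signal of 6 genes between 137464 and 258966. Genes of atrial muscle were not evenly spread. Myl7, the atrial myosin light chain, gave 25946, 4415, 11451 and 9718 in WKY rats in air and 657, 404, 9629.5 and 2927 in those under DE. SH rats had 33.5, 154, 33.4 and 75.0 in air and 94.2, 1443, 7876 and 187 under DE. All WKY-air arrays thus lay above all SH-air arrays, and WKY-DE replicate 3 and SH-DE replicate 3 stood above the rest of their groups. Fewer cells of a type and less RNA in each cell cannot be told apart in such tissue RNA.

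The inducible subunits were the class with the 1 call, and its members did not move alike. Psmb10 (probe set 1374033_at), the trypsin-like subunit of the immunoproteasome, gave signals of 624, 368, 419.9 and 538 in WKY-air and of 286, 304, 335 and 308 in SH-air. Every SH-air array was below every WKY-air array, with means of 308 ± 20.1 and 487 ± 116 (SD, n = 4). The log2 fold change was −0.61 (SE 0.15, 95% interval −0.92 to −0.30), with a limma adjusted p of 0.0346. This was 1 of 46 probe sets, beside 3.15% of all probe sets called between the strains in air. Without the dimmest 40%, which removed no member, it was 1 of 46 beside 759 of 9519. The adjusted p lay between 0.0128 and 0.150 over all alternatives, and the call was lost without WKY-air replicate 1 (log2 fold change −0.48, adjusted p = 0.0840) or 4 (−0.55, 0.101), without SH-air replicate 1 (−0.57, 0.0892), 2 (−0.60, 0.0826) or 4 (−0.61, 0.0849), in a model of the compared groups alone (0.150) and without both WKY-DE replicate 3 and SH-DE replicate 3 (0.0517), which are no part of the comparison but enter the pooled spread. Psmb10 gave 344, 441, 387 and 359 in WKY-DE and 316, 310.4, 311 and 292 in SH-DE, so that the strains did not overlap under DE either, but this difference did not pass the test (log2 fold change −0.30, SE 0.15, limma adjusted p = 0.396). Neither did DE in WKY (−0.31, adjusted p = 0.240) or in SH rats (0.00, adjusted p = 0.999).

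**Figure D1:**
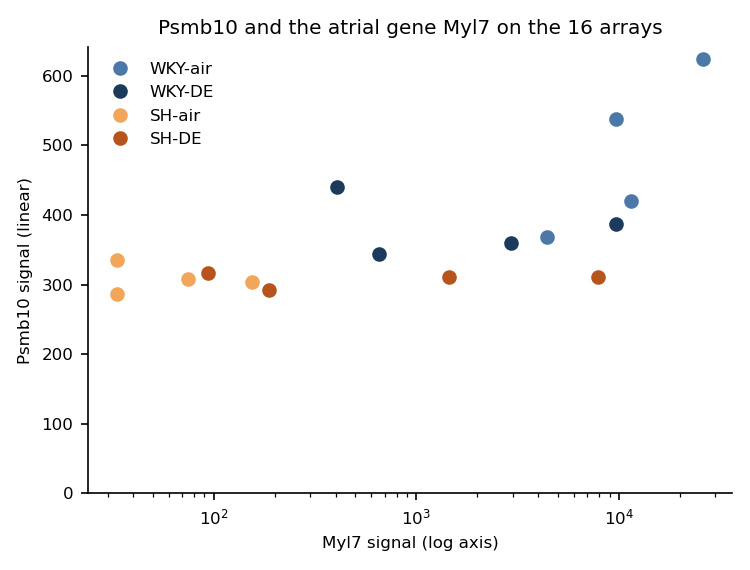
Signal of Psmb10 (linear axis) against the signal of the atrial gene Myl7 (log axis), 1 point for each of the 16 arrays, coloured by group. The SH arrays sit between 286 and 335 for Psmb10 over the whole range of Myl7, from 33.4 to 7876, and the highest Psmb10 value, 624, is on the array with the highest Myl7, 25946.

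The atrial markers moved with this comparison. Of 5 measured atrial genes 3 were called lower in SH-air, with summed signals of 31981 to 94381 in WKY-air and 11946 to 23630 in SH-air, and 3 of 5 fibroblast markers were called lower too (16105 to 20337 against 10090 to 12952). Their part in the Psmb10 difference was not tested. Among SH rats, where Myl7 was 7876 in SH-DE replicate 3 and at most 1443 elsewhere, Psmb10 was 311 on that array and between 286 and 335 on the others. In WKY-DE replicate 3 it was 387, inside the range of 344 to 441 of its group. Macrophage markers (4 genes, 3775 to 4073 in WKY-air and 3193 to 4163 in SH-air) and lymphocyte markers (6 genes, 329 to 474 and 273 to 557) overlapped between these groups and none was called. Of the 7 interferon response genes 1, Ifit1, was called, and it was higher in SH-air. None of the 4 endothelial markers was called in any comparison, and of the lymphocyte markers 1, Cd3g, was called higher for DE in WKY.

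Psmb9, which replaces Psmb6, gave 495, 429, 469 and 594 in WKY rats in air and 498, 567, 485 and 486 under DE. SH rats had 428, 299, 449 and 336 in air and 433, 249, 547 and 289.5 under DE. The SH groups reached lower values but overlapped the WKY groups, and neither strain difference passed the test (log2 fold change −0.39, adjusted p = 0.360 in air, and −0.47, adjusted p = 0.351 under DE). Without WKY-DE replicate 3 and SH-DE replicate 3 the value under DE was −0.68 (adjusted p = 0.178). Psmb8, which replaces Psmb5, gave 319, 333, 361 and 409 in WKY-air and 501, 452, 422 and 464 in WKY-DE. These groups did not overlap, yet the log2 fold change of 0.36 (SE 0.15) had an adjusted p of 0.185. In SH rats Psmb8 was 412 ± 85.9 in air and 405 ± 56.7 under DE, a difference of −0.01 with a 95% interval of −0.33 to 0.30. Psmb8 and Psmb9 lie next to each other on chromosome 20 of build GRCr8 with Tap1 between them and Tap2 beside Psmb8, while Psmb10 is on chromosome 19.

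Their constitutive counterparts gave no call. Psmb5, the chymotrypsin-like subunit, was 6507, 7385, 5538 and 6493 in WKY-air and 5058, 4606, 3859 and 5295 in WKY-DE. All WKY-DE arrays were below all WKY-air arrays, with a log2 fold change of −0.46 (SE 0.16, limma adjusted p = 0.128). In SH rats it was 4379, 4404, 6726 and 5838 in air and 6137, 5902, 6612 and 5083 under DE, which overlapped (0.17, adjusted p = 0.910). The difference between these DE effects, the interaction, was 0.63 (SE 0.23) with an adjusted p of 0.295. Psmb7, the trypsin-like subunit that Psmb10 replaces, was 4560.3 ± 548 in WKY-air and 4898 ± 518 in SH-air, a log2 difference of 0.10 with a 95% interval of −0.14 to 0.35. Under DE it was 4012, 4337, 3783 and 3992 in WKY and 4837, 4396, 5288 and 4821 in SH rats, with no overlap, and its difference of 0.26 had an adjusted p of 0.352.

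**Figure D2:**
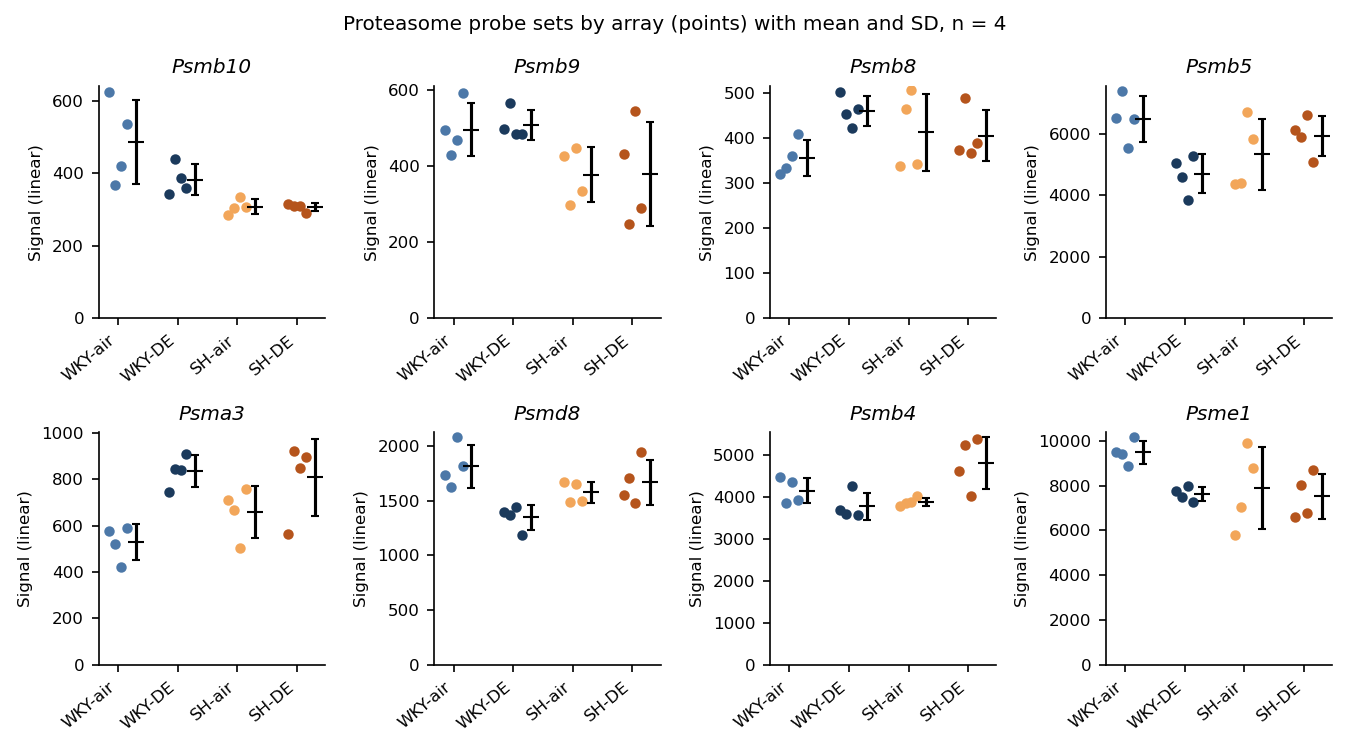
Signals (linear axes from 0) of 8 proteasome probe sets, with 1 point per array, 4 arrays in each of the 4 groups, and the mean and SD beside them. Psmb10 sits between 286 and 335 on all SH arrays and between 344 and 624 on all WKY arrays, while Psma3 is higher and Psmd8 and Psmb5 lower on every WKY-DE array than on any WKY-air array.

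No proteasome probe set was called for DE in WKY rats, beside 1.88% of all probe sets. At an unadjusted p under 0.05 there were 8 of 46 (3 higher, 5 lower), beside 20.5% of all. Over the alternatives this count lay between 4 (replicate block, or without WKY-DE replicate 1) and 11. In 7 of 46 the groups did not overlap, beside 12.7% of all probe sets. These 7 were Psma3 and Psmb8, which were higher in WKY-DE, and Psmb5, Psmc5, Psmd8, Psme1 and 1 probe set of Psme4, which were lower. The median log2 fold change of the 46 was −0.06, and 16 were above 0, against a median of 0.10 and 61.9% above 0 over all probe sets. After quantile normalization, which lowers the median of all probe sets to 0.01, the members' median was −0.03 and 17 were above 0. Removal of the dimmest 40% left all 46 members among 9519 probe sets. There 2 members were called, beside 642 of the 9519, and 11 had an unadjusted p under 0.05, beside 2465. Over these 9519 the median log2 fold change was 0.06, with 59.1% above 0.

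Psma3 (probe set 1368508_at), a subunit of the alpha ring, had the lowest p of the members for DE in WKY. It gave 579, 521, 421 and 591 in WKY-air and 745, 846, 841 and 912 in WKY-DE. The log2 fold change was 0.66 (SE 0.17, 95% interval 0.28 to 1.03) with a limma adjusted p of 0.0631, and over all alternatives that p lay between 0.0272 and 0.135. In SH rats it was 712, 668, 503 and 760.3 in air and 563, 925, 850.2 and 897 under DE, which overlapped (0.28, adjusted p = 0.865). The interaction was −0.38 with an adjusted p of 0.552, so a difference between the strains in the effect of DE was not shown. Without SH-DE replicate 1, an array outside this comparison, the adjusted p in WKY fell to 0.0466 and Psma3 was called. Psma3 did not move with the rest of its ring. Of the other 6 alpha subunits, 2 were higher and 4 lower in WKY-DE, from −0.25 for Psma6 to 0.20 for Psma1, and Psma5 was closest to 0 at −0.02.

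Psmd8 (probe set 1389519_at), a subunit of the 19S lid, gave 1735, 1624, 2078 and 1812 in WKY-air and 1398, 1368, 1444 and 1183 in WKY-DE. Each WKY-DE array was below each WKY-air array, and the log2 fold change was −0.42 (SE 0.12, limma adjusted p = 0.0773, between 0.0355 and 0.171 over the alternatives). In SH rats the signals of 1666, 1485, 1654 and 1495 in air and 1549, 1707, 1477 and 1943 under DE overlapped, and the interaction was 0.50 (SE 0.17, adjusted p = 0.273). Psmd6, another lid subunit, was closest to 0 in its class for DE in WKY at −0.07. Summed signals of the atrial markers were 21816, 11661, 41881 and 14522 in WKY-DE and 31981 to 94381 in WKY-air. Only WKY-DE replicate 3 reached the WKY-air range. The median log2 fold change of the 5 atrial markers was −2.23, and none was called (Myl7 −2.66, limma adjusted p = 0.225, and Nr2f2 0.36, adjusted p = 0.399). For DE in WKY the ventricular cardiomyocyte markers had a median log2 fold change of −0.37. Their sums were 137464 to 209489 in WKY-DE and 185103 to 258966 in WKY-air. Sums of macrophage markers did not overlap (2830 to 3594 and 3775 to 4073, median −0.27). Most of these sums was 1 gene, Lyz2, with means of 2306 in WKY-DE and 2898 in WKY-air. Its log2 fold change was −0.33, beside −0.78 for Cd68, −0.20 for C1qa and 0.11 for Csf1r. Medians were −0.37 for fibroblast, −0.07 for endothelial, 0.17 for lymphocyte and 0.46 for interferon response genes. Of these only Cd3g was called. The part of all these markers in the WKY differences was not tested. Without WKY-DE replicate 3, the array of highest atrial signal in its group, and SH-DE replicate 3 the log2 fold change was −0.45 for Psmd8, 0.65 for Psma3 and −0.37 for Psmb5. The WKY-DE arrays that remained had atrial sums of 11661 to 21816, all below WKY-air. Leaving out replicate 3 thus widened the atrial difference between the WKY groups, so this setting cannot bear on its part.

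The other classes gave no call for DE in WKY. The base ATPases, which thread the substrate into the barrel, ranged from −0.28 for Psmc5 (2989 ± 231 in WKY-air and 2462 ± 89.3 in WKY-DE, adjusted p = 0.189) to 0.20 for Psmc4, with Psmc1 closest to 0 at 0.03. The base subunits without ATPase activity were all lower, from −0.06 for Psmd2, a scaffold, to −0.20 for Psmd4, a ubiquitin receptor (adjusted p = 0.370). Among the assembly chaperones Psmg4 had the largest value, −0.45 (SE 0.22, adjusted p = 0.254), and Psmg3 the smallest, 0.00. Psmb2 was closest to 0 of the constitutive beta subunits at 0.06. Of the pair that are no subunits, Psme3ip1 was at −0.16 and Psmc3ip at 0.05.

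The regulators that open the barrel in place of the 19S particle gave no call either. Psme1, a subunit of the interferon-inducible PA28 ring, was 9517, 9416, 8901 and 10160.5 in WKY-air and 7769, 7484, 7980.1 and 7273 in WKY-DE, without overlap (log2 fold change −0.32, SE 0.15, adjusted p = 0.259). Its partner Psme2, which lies close by on chromosome 15, overlapped between these groups at 1764 ± 195 and 1613 ± 39.7 (−0.12, adjusted p = 0.548). The 3 probe sets of Psme4, which encodes the activator PA200, disagreed. For DE in WKY they gave −0.24 (1368817_at), 0.19 (1368818_at) and 0.37 (1387345_at), with adjusted p of 0.218, 0.342 and 0.235. Between the strains in air 1387345_at gave 941, 1027, 1225 and 918 in WKY-air and 1287, 1365, 1799 and 1453 in SH-air, which did not overlap (0.51, adjusted p = 0.125), against 0.07 and 0.02 for the other two. Psmf1, the inhibitor PI31, was 502 ± 109.7 and 479.7 ± 82.6 in WKY rats in air and under DE and 503 ± 61.4 and 521 ± 68.1 in SH rats, and each of its 4 differences lay between −0.06 and 0.12.

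**Figure D3:**
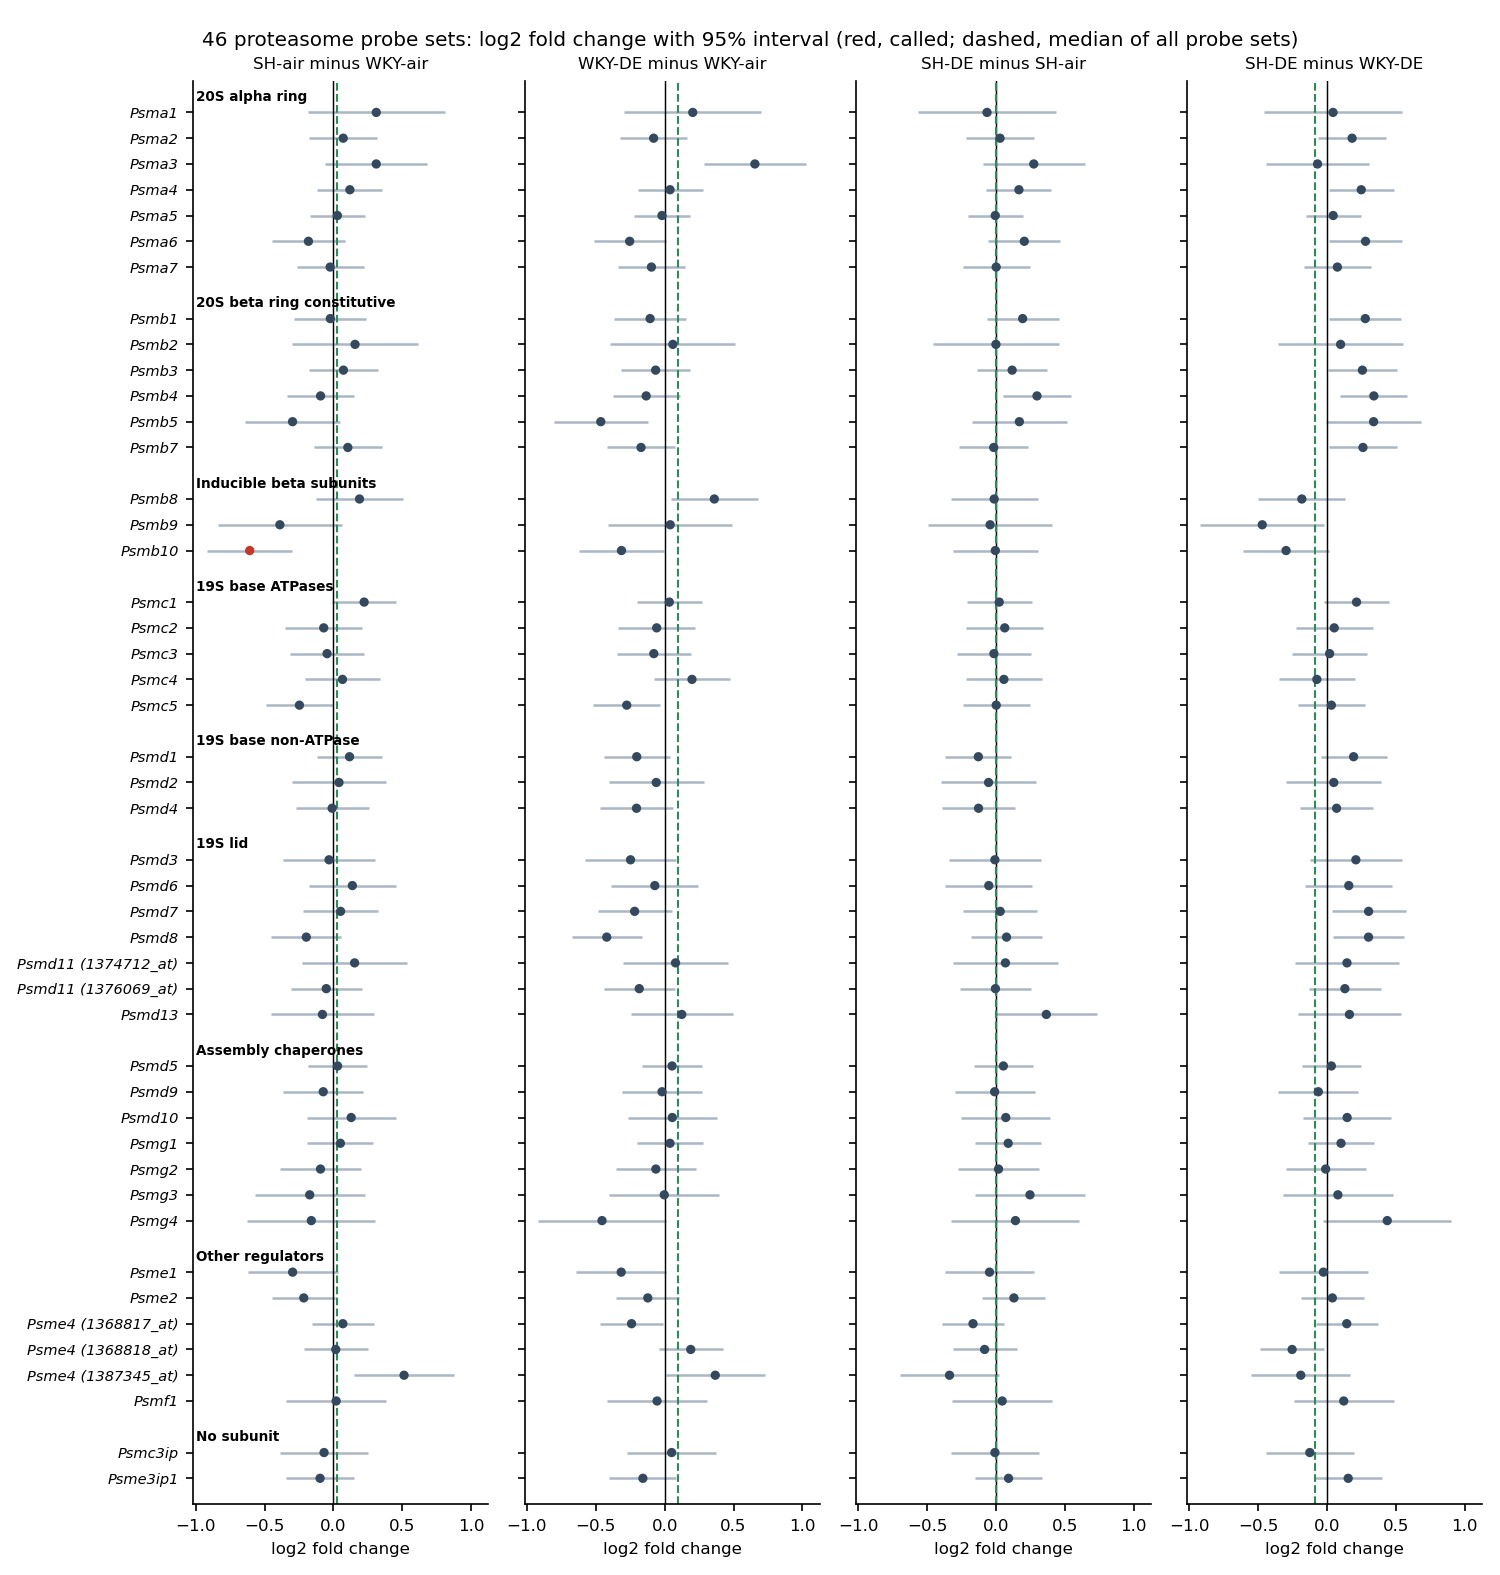
The log2 fold change of each of the 46 probe sets (points) with its 95% interval (bars) in 4 comparisons, grouped by class. The red point, Psmb10 between the strains in air, is the 1 called, and the dashed line is the median of all 15866 probe sets, at 0.02, 0.10, 0.00 and −0.09 from left to right.

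In SH rats DE called none of the proteasome probe sets and 0% of all probe sets. At an unadjusted p under 0.05 there was 1 of 46, beside 6.16% of all. This was Psmb4, a constitutive beta subunit, at 3782, 3862, 3893 and 4026 in SH-air and 4618, 5242, 4022 and 5395 in SH-DE. SH-DE replicate 3 fell just inside the SH-air range, and the log2 fold change of 0.30 (SE 0.11) had a limma adjusted p of 0.758. The groups did not overlap in 1 of 46, beside 4.08% of all. That was the lid subunit Psmd13, at 442, 324, 476 and 475 in SH-air and 558, 562, 495 and 597 in SH-DE (0.37, SE 0.17, adjusted p = 0.802). The median over the 46 was 0.02, beside 0.00 over all probe sets. The 95% interval of the difference lay within a 1.5-fold change either way for 41 of the 46, and within 2-fold for all 46. For DE in WKY these counts were 37 and 45, Psma3 being the one that reached past 2-fold.

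Between the strains under DE no member was called, beside 0.813% of all probe sets. Of the 46, 35 were higher in SH-DE, with a median log2 difference of 0.10, while over all probe sets the median was −0.09 and 37.8% were higher. After quantile normalization the median was 0.09 with 30 of 46 higher, and over all probe sets −0.01. Over the 9519 probe sets left without the dimmest 40% the median was −0.06, with 41.6% higher in SH-DE. At an unadjusted p under 0.05 there were 10 members (8 higher, 2 lower), beside 13.3% of all. This count was 4 after quantile normalization, 4 with the replicate block, 5 with the compared groups alone, and between 2 (WKY-DE replicate 1) and 7 (WKY-DE replicate 3) without any 1 of the 8 DE arrays. In 9 of 46 the groups did not overlap, beside 8.8% of all, with Psma2, Psma4, Psmb1, Psmb3, Psmb7, Psmd1 and Psmd8 higher and Psmb10 and 1 probe set of Psme4 lower in SH-DE. All 6 constitutive beta subunits were higher (median 0.27, from 0.10 for Psmb2 to 0.34 for Psmb4), as were all 7 lid probe sets (median 0.16, from 0.13 for a Psmd11 probe set to 0.30 for Psmd7). The 3 inducible subunits were all lower (median −0.30). Psmb4 had the lowest p, with a difference of 0.34 (SE 0.11, limma adjusted p = 0.207). Psmd8 (0.30, adjusted p = 0.299) and Psmd7 (0.30, adjusted p = 0.325) followed. This comparison shares its WKY-DE arrays with DE in WKY and its SH-DE arrays with DE in SH, so that these values are not independent of those above. Without the replicate numbered 3 in both DE groups, the members' median was 0.14, and Psmb4 was at 0.48 with an adjusted p of 0.0747.

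In air, the members' median difference between the strains was 0.00, beside 0.02 over all probe sets. The groups did not overlap in 2 of 46 (Psmb10 and Psme4), beside 11.3% of all, and 3 had an unadjusted p under 0.05, beside 17.5%. The third was Psmc5, at −0.25 (SE 0.11, adjusted p = 0.276). The interval lay within 1.5-fold for 37 of 46 and within 2-fold for all 46. The interaction called none of the 46, beside 0.0063% of all (1 probe set), and 5 of 46 had an unadjusted p under 0.05, beside 12.5%. The lowest were a Psme4 probe set (1387345_at, −0.70, adjusted p = 0.273), Psmd8 and Psmb5.

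Array by array, the members differed little as a group. The median deviation of the 46 from their own means over the 16 arrays lay between −0.07 and −0.03 (log2) in WKY-DE and between 0.01 and 0.10 in SH-DE, and these ranges did not overlap. In WKY-air it was between −0.02 and 0.07, also without overlap with WKY-DE, and in SH-air between −0.10 and 0.06. Over all probe sets the median deviation was between 0.06 and 0.08 in WKY-DE and at most 0.02 elsewhere. The pooled SD of the array medians within a group was 0.049, and the group means lay between −0.05 and 0.04.

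**Figure D4:**
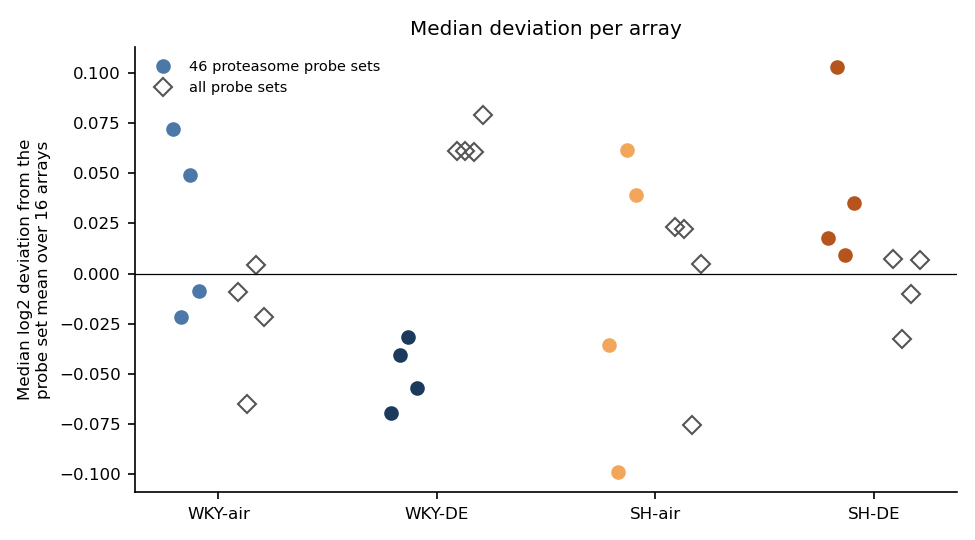
Median log2 deviation per array from each probe set's mean over the 16 arrays, for the 46 proteasome probe sets (filled, coloured by group) and all 15866 probe sets (open diamonds). The 4 WKY-DE arrays lie between −0.07 and −0.03 for the proteasome and between 0.06 and 0.08 for all probe sets.

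Within groups the members were weakly correlated with each other. After removal of the group means, the mean correlation between pairs of the 46 over the 16 arrays was 0.054, beside 0.0077 over all probe sets. It was 0.099 among the 15 probe sets of the 19S particle and 0.030 among the 13 of the 20S alpha and constitutive beta rings. Psmd4 followed the mean of the others most closely (r = 0.71), then Psmd10 (0.68), an assembly chaperone, and Psmd1 ran the other way (−0.50). For probe sets of the same gene r was 0.44 for the pair of Psmd11 and 0.56, 0.17 and −0.25 for the pairs of Psme4. All these values come from the same 16 arrays and are descriptions.

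Of 82 gene symbols listed around the proteasome, 65 were measured. Between the strains in air 1 was called higher and 1 lower (3.08%, beside 3.15% of all probe sets), and for DE in WKY 1 was called lower (1.54%, beside 1.88%), shares no higher than those of the whole array. The other comparisons called none. Nploc4, a cofactor of the segregase Vcp that extracts ubiquitin-tagged proteins, was higher in SH-air, at 856 to 968 in WKY-air and 1264 to 1307 in SH-air, a log2 fold change of 0.51 (SE 0.11) with a limma adjusted p of 0.0185. B2m, the light chain of MHC class I, was lower in SH-air, at 21625 to 25741 in WKY-air and 13663 to 18400.1 in SH-air (−0.51, SE 0.12, adjusted p = 0.0376). Stub1, a chaperone-bound ubiquitin ligase, was lower in WKY-DE, at 2554 to 2747 in WKY-air and 1554 to 2092 in WKY-DE (−0.56, SE 0.12, adjusted p = 0.0357). In each of the 3 the groups did not overlap, as in 11.3% of all probe sets between the strains in air and 12.7% for DE in WKY. The 3 were named for their calls on these same values, so this is no added support. The call of Nploc4 was lost in a model of the compared groups alone, with adjusted p between 0.00501 and 0.0705 over all alternatives. For B2m this range was 0.00588 to 0.132, and its call was lost without WKY-air replicate 1 (0.0866), 3 (0.0949) or 4 (0.0737), without SH-air replicate 1 (0.101), 2 (0.0708) or 4 (0.0734), and without SH-DE replicate 1 (0.0520). It was also lost after quantile normalization (log2 fold change −0.39, adjusted p = 0.0762), with the compared groups alone (0.132) and with the replicate block (0.0606). For Stub1 it was 0.00992 to 0.104, and the call was lost without any 1 of the WKY-air arrays (0.0537 to 0.0721) and without WKY-DE replicate 1 (0.0871), 2 (0.0709) or 3 (0.0763). It was also lost after quantile normalization (−0.51, adjusted p = 0.0548), with the compared groups alone (0.104), with the replicate block (0.0710) and without both WKY-DE replicate 3 and SH-DE replicate 3 (0.0847). The part of the atrial and fibroblast markers, of which 3 of 5 each were called lower in SH-air and none for DE in WKY, was not tested.

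No other gene of these lists was called. Tapbp, the tapasin of peptide loading, was 0.61 higher in SH-air (log2, adjusted p = 0.0617), and Ubqln2, a shuttle to the proteasome, 0.79 higher in WKY-DE (adjusted p = 0.0633). Among partners of the proteasome the lowest p were those of Ecpas, a scaffold, between the strains in air (0.39, adjusted p = 0.158) and of Txnl1, a thioredoxin bound to the 19S particle, for DE in WKY (0.65, adjusted p = 0.141). Of 7 genes for the transcription of proteasome subunits, Nfe2l1, Nfe2l2 and their partners included, none was called, and the lowest p were those of the CCAAT-binding subunits Nfya for DE in SH (−0.40, adjusted p = 0.768) and Nfyb for the interaction (1.05, adjusted p = 0.495). The Nfyb probe set was near the floor, with signals of 7.7 to 76.9, beside array medians of at least 173. Of 17 E2 enzymes none was called, with Ube2r2 (0.42, adjusted p = 0.122) and Ube2d2 (0.42, adjusted p = 0.154) the lowest for DE in WKY. Trim63, the muscle ligase MuRF1, gave 639 ± 57.9 in air and 1082 ± 291 under DE in WKY rats and 1057 ± 214 and 851 ± 170.5 in SH rats, and its interaction of −1.01 had an adjusted p of 0.226.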

How the data were processed

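RNA from the left ventricle of 16 rats was measured on Affymetrix Rat 230A arrays, 4 a group. The authors deposited a linear intensity for each probe set of each array, computed with MAS5 (version not given in the sources used here) and scaled to a trimmed mean of 500. The study's own lists used RMA values, not used here. After 57 control probe sets were left out, log2(intensity + 16.1), the offset being the 10th percentile, was fitted for 15866 probe sets with limma 3.58.1 in R 4.3.3 as 4 group means, with Benjamini-Hochberg adjustment over all. No dim probe set was removed. All 46 members lay outside the dimmest 40%, so the shares over all probe sets include dimmer probe sets than the members. Fold changes are on this offset scale, which understates changes of dim probe sets. The number of arrays limits the precision. The calculations were tested on simulated data.

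Of these probe sets 12783 have 1 gene in the annotation, 312 several and 2771 none listed. Members, classes and lists were chosen with earlier results of these data known. Named are members called, the 3 of lowest p per comparison, the catalytic pairs and regulators, the largest and smallest value per class for DE in WKY, and of the lists called genes and the 2 of lowest p. A gene counts in a list by its brightest probe set. Lists covered partners, transcription, ubiquitin and shuttles, E2 enzymes, ligases and deubiquitinases, and antigen presentation, with cell type markers.

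The results were recomputed with a stricter adjusted p (0.01), with the offset at 1 or at the 25th percentile (62.5), after quantile normalization, after removal of the dimmest 40%, with a robust intensity trend, with array weights, on the compared groups alone, with a replicate block and without each array in turn. A last alternative, chosen after seeing the data, left out the third array of both DE groups, which had high atrial markers.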

Additional observations from a re-analysis of the deposited data

Results flagged for a closer look

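Of 184 groups of 4 arrays checked (46 probe sets in 4 groups), 12 had an array set apart from the other 3 by a gap that chance alone gives in about 1 of 20 groups. A count of 12 in 184 is near that rate. In WKY-air, replicate 1 had the highest signal of Psmb1 (6297, next 5093) and Psmd10 (544, next 417) and the lowest of Psmc3 (1843, next 2106). Replicate 3 of that group had the highest signal of Psmc1 (1686, next 1436), Psmc2 (6022, next 5133) and the Psme4 probe set 1368817_at (2451, next 2151). In WKY-DE, replicate 3 had the highest Psmb4 (4268, next 3694) and the lowest Psmg2 (624, next 712), replicate 2 the highest Psmb9 (567, next 498) and replicate 4 the highest Psmd4 (1401, next 1261). Psma7 was highest in SH-DE replicate 1 (4998, next 4247), and Psmc3ip, which encodes no subunit, in SH-air replicate 1 (419.6, next 304).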

How the results depend on the processing

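The count of proteasome probe sets called between the strains in air, 1 (Psmb10), fell to 0 with an adjusted p under 0.01, with the compared groups alone, with the replicate block and without WKY-DE replicate 3 and SH-DE replicate 3. With 1 array left out at a time it lay between 0 and 1 and was 0 in 5 of 16 cases. For DE in WKY the count of 0 became 1 with the offset at the 25th percentile (Psma3) and 2 without the dimmest 40% or with the intensity trend (Psma3 higher, Psmd8 lower), and lay between 0 and 1 with 1 array left out. In the other comparisons the count stayed 0 in every alternative. Same-numbered arrays did not deviate together (r between −0.10 and 0.05 over 24 pairs). The labels do not say what the numbers mean, so whether they pair the rats is not known. With the replicate block Psmb10 had an adjusted p of 0.0803, Stub1 of 0.0710 and B2m of 0.0606, and 315 of all probe sets were called between the strains in air in place of 499, and 113 in place of 298 for DE in WKY.

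Log2 fold changes near 0 for DE in WKY changed sign. With quantile normalization they were 0.0386 for Psma5, −0.0293 for Psmb9, 0.0195 for Psmd2 and −0.0546 for Psmc3ip. With array weights they were 0.0322 for Psmd6, 0.0616 for Psmf1 and −0.0397 for Psmc3ip, and without the replicate numbered 3 in both DE groups −0.0366 for Psmb2 and 0.0176 for Psmd6. With 1 array left out at a time the range was −0.0366 to 0.20 for Psmb2, −0.0246 to 0.13 for Psmb9, −0.00906 to 0.0933 for Psmc1, −0.17 to 0.0868 for Psmd2, −0.17 to 0.0176 for Psmd6, −0.14 to 0.16 for Psmg3, −0.17 to 0.0419 for Psmf1 and −0.0263 to 0.18 for Psmc3ip. The cause was not tested. Among all probe sets, calls between the strains in air (499) ranged from 113 with an adjusted p under 0.01 and 174 with the compared groups alone to 759 without the dimmest 40%, and those between the strains under DE (129) from 34 with the compared groups alone to 283 with array weights. For DE in WKY (298) there were 4 with an adjusted p under 0.01, 35 with the compared groups alone, 91 with quantile normalization and 667 with the intensity trend. DE in SH (0) gave 0 to 3 calls and the interaction (1) 0 to 6. No fold change named from a called result changed sign.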
